A study of Mus musculus with 18 samples.

Results

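The genes described here are 39 markers of other cells of the spleen, measured in RNA from 3 sorted subsets of mouse dendritic cells. They fall into 6 lineages, with 7 genes for B or plasma cells, 7 for T cells, 6 for NK cells, 6 for erythroid cells, 6 for neutrophils and 7 for monocytes or macrophages. The genes were chosen by name, and all 39 were listed in the raw count table of each subset. They stand among 15219 genes listed in all 3 tables and 17903 genes listed in at least 1. The question is how much of each lineage's marker RNA the sorted fractions held, and whether the subsets and the libraries of a subset held the same amount.

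The series profiled conventional dendritic cells of type 1 (cDC1) and type 2 (cDC2) and plasmacytoid dendritic cells (pDC) from spleen. The labels give 18 samples, 6 for each subset, of which 3 came from mice labelled HDAC1 floxed and 3 from mice labelled HDAC1 Mx1-Cre. All mice, controls included, were given polyI:C, and the cells were sorted 2 weeks later. Mx1-Cre is driven by an interferon-inducible promoter that is active in many tissues, so the recombination is not limited to dendritic cells. Red cells were lysed with ACK buffer before staining. Both conventional subsets were sorted from lineage-negative, CD11c+ MHCII+ CD64- cells, cDC1 as XCR1+ CD11b- and cDC2 as XCR1- CD11b+. The pDC were lineage-negative, CD64- and CD11b- cells with intermediate CD11c that stained for BST2. The antibodies of the lineage stain are not given.

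In the deposited tables the libraries are coded a157 to a174, and these codes match no sample title. Each library was therefore placed in the subset of its table, and genotype entered no comparison. The 6 libraries of a subset mix both genotypes in an unknown assignment, so an effect of Hdac1 loss is part of the spread within each subset. Nor do the labels say whether the 3 subsets came from the same mice, and p-values measure only the spread between these libraries.

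Dendritic cells are rare in spleen and are sorted out of a large excess of B cells, T cells, red cells and their precursors, macrophages and granulocytes. A marker is a gene whose transcript is abundant in 1 lineage and low elsewhere, so its level in a sorted fraction is commonly read as a trace of carried-over cells or of their RNA. The reading is imperfect in dendritic cells, which make some of these transcripts themselves. Of the 39 markers, Cd2, Cd5, Jchain, Lyz2 and Adgre1 were noted as known in dendritic cells too. In bulk RNA, fewer cells of a type and less RNA per cell cannot be told apart, and the source of the transcripts described below was not tested.

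Libraries held 23530860 to 37105002 counts in cDC1, 25672768 to 33820524 in cDC2 and 24453121 to 31773453 in pDC. Levels are given as counts-per-million (CPM) of all counts of a library, and 3 counts, the limit that a count of 0 allows, correspond to 0.0809 to 0.127 CPM over all 18 libraries. Intervals of this kind cover counting error only. The subset labels were borne out between cDC1 and cDC2 and by the pDC genes. The cDC1 and cDC2 lists set these subsets apart from pDC less well. The chemokine receptor gene Xcr1 had a median of 966 CPM in cDC1, against 7.996 in cDC2 and 1.89 in pDC. Itgam, which encodes the sorted antigen CD11b, had 38.2 CPM in cDC2, against 2.499 in cDC1 and 2.20 in pDC. Siglech, a pDC surface lectin gene, had 8610 CPM in pDC, against 22.95 in cDC1 and 10.4 in cDC2. Clec9a, another cDC1 receptor gene, had 283, 6.94 and 106 CPM in cDC1, cDC2 and pDC, Sirpa of cDC2 had 18.6, 389 and 148, and Bst2, which encodes the antigen used to sort pDC, had 46.7, 35.7 and 1737. In edgeR's quasi-likelihood test (adjusted p under 0.05 over all genes), all 8 cDC1 identity genes were higher in cDC1 than in cDC2, all 8 cDC2 identity genes were higher in cDC2 than in cDC1, and all 8 pDC identity genes were higher in pDC than in either conventional subset. Against pDC the other lists were less one-sided. Of 8 cDC1 genes, 6 were higher in cDC1 and 1 in pDC, and of 8 cDC2 genes, 4 were higher in cDC2 and 2 in pDC. By median, Irf8 of the cDC1 list had 1662 CPM in cDC1 and 4445 in pDC. Cd209a of the cDC2 list had 389 CPM in cDC2 and 1080 in pDC. Fcgr1, which encodes the excluded antigen CD64, lay between 0 and 1.08 CPM in cDC1, between 0.844 and 5.32 in cDC2 and between 0 and 0.315 in pDC.

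Every one of the 39 markers was detected, but most stood at low levels. All 39 had at least 1 count in every cDC1 library, 34 in every cDC2 library and 35 in every pDC library. A mean of at least 10 CPM was reached by 17 markers in cDC1, 17 in cDC2 and 12 in pDC, and a mean of at least 100 CPM by 8, 7 and 6. Ranked by median, cDC1 was the highest subset for 27 of the 39 markers, cDC2 for 8 and pDC for 4. For 12 markers the 6 libraries of the highest subset did not overlap those of the other subsets, namely Cd79b, Ms4a1, Cd3g, Cd8b1, Ncr1, Nkg7, Eomes, Lyz2, Adgre1, C1qa, C1qb and C1qc. Over the 15219 genes of all 3 tables, the same held for 30.9%, so the count of 12 of 39 lay near the background. By subset, 5 of these markers were above the others in cDC1, 5 in cDC2 and 2 in pDC, beside 5.54%, 6.39% and 19.0% of all genes.

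**Figure D1:**
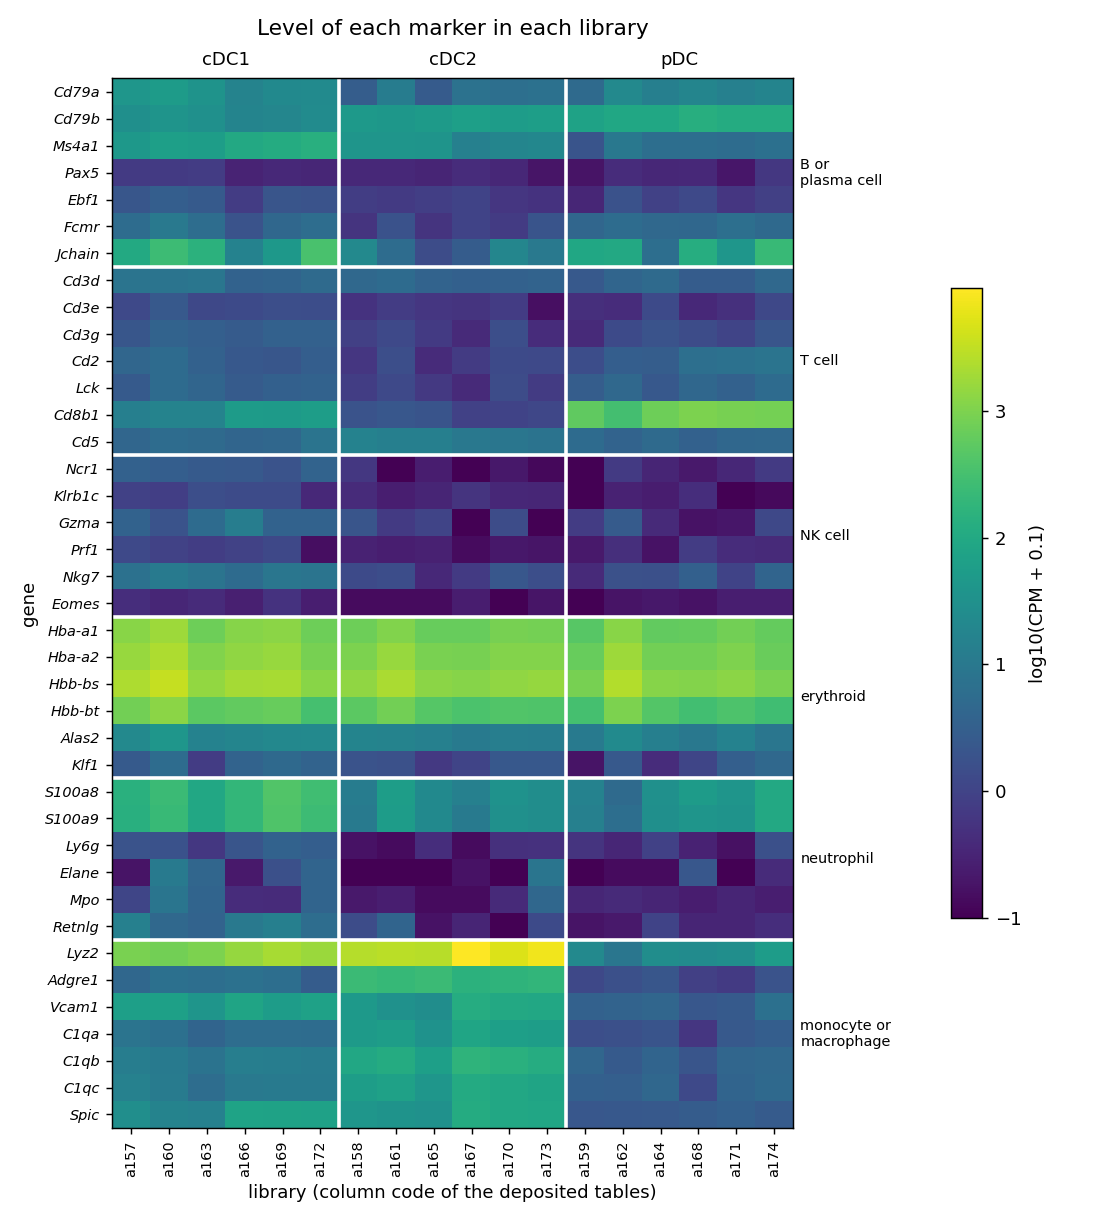
Level of each of the 39 markers (rows, grouped by lineage) in each of the 18 libraries (columns, grouped by subset), as log10(CPM + 0.1) on a colour scale. The 4 globin genes are bright in all libraries, Cd8b1 is bright in pDC, and Lyz2 is bright in cDC2 and cDC1 but not in pDC.

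Summed over a lineage, the traces ordered the subsets differently from lineage to lineage. NK markers were highest in cDC1, with a summed 15.8 to 22.7 CPM (median 17.1) against 1.23 to 4.24 (2.13) in cDC2 and 1.06 to 5.98 (3.42) in pDC. Neutrophil markers were likewise highest in cDC1, with 205 to 820 CPM (median 447), against 24.7 to 118 (55.1) in cDC2 and 12.1 to 203 (68.1) in pDC. For both lineages the lowest cDC1 library lay above the highest library of the other subsets. For neutrophils it did so only just, at 205 CPM against 203 in a pDC library. S100a8 and S100a9 made up 49.4% and 46.8% of the neutrophil sum in cDC1. Taken singly, 0 of the 6 neutrophil markers had cDC1 libraries free of overlap with the other subsets. T cell markers summed to 318 to 975 CPM (median 811) in pDC, 36.1 to 82.8 (57.5) in cDC1 and 14.8 to 25.7 (19.7) in cDC2, with no overlap, but Cd8b1 alone made up 97.5% of the pDC sum. Monocyte or macrophage markers summed to 3099 to 10008 CPM (4503) in cDC2, 918 to 2263 (1391) in cDC1 and 23.4 to 79.5 (40.7) in pDC, again with no overlap. Lyz2 made up 89.3% of that sum in cDC2 and 90.4% in cDC1. B or plasma cell markers overlapped between cDC1 (153 to 547 CPM, median 256) and pDC (123 to 369, median 207), and both lay above cDC2 (88.8 to 110, median 99.99). Erythroid sums overlapped between all 3 subsets. They lay between 3190 and 8794 CPM in cDC1 (5353), 3104 and 5627 in cDC2 (3723) and 2326 and 6457 in pDC (2936), which is 0.319% to 0.879% of all counts in a cDC1 library.

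**Figure D2:**
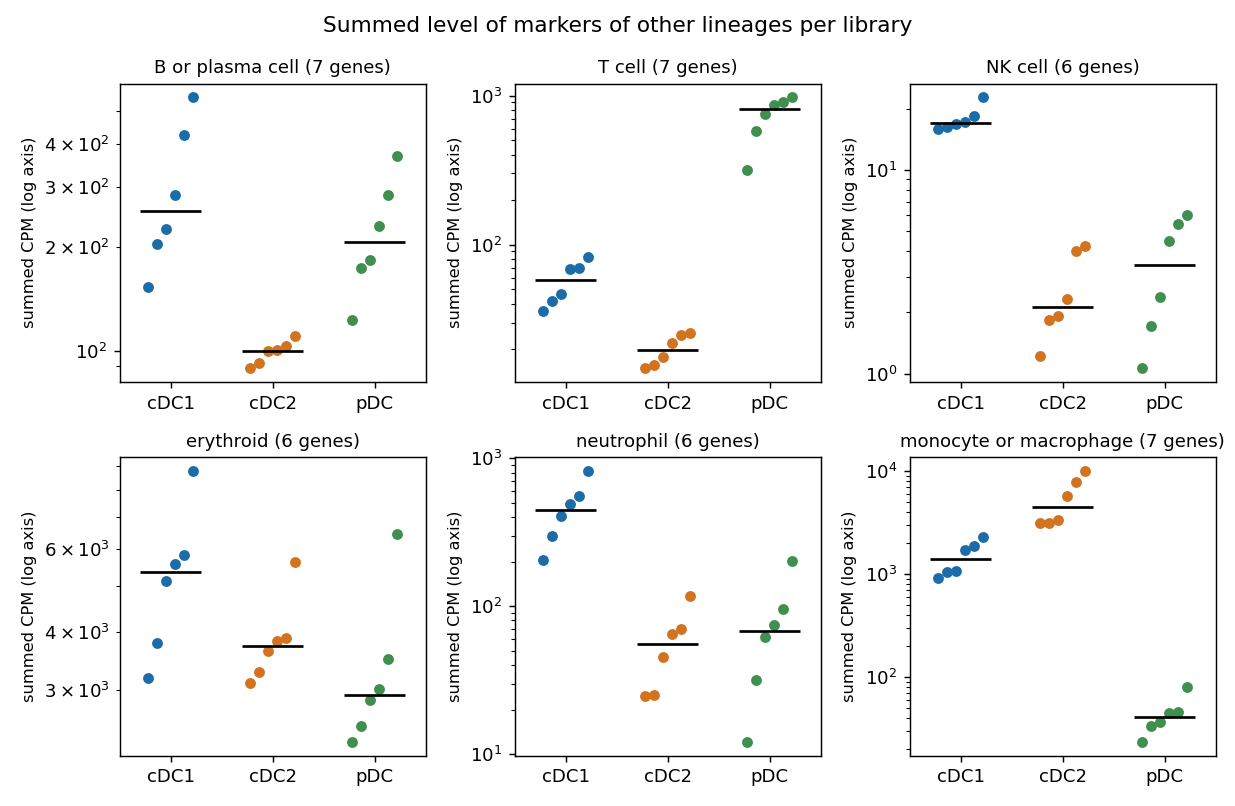
Summed CPM (log axis) of the markers of each lineage, 1 point per library, with a line at the median of the 6 libraries of a subset. NK and neutrophil sums of cDC1 lie above all others, the neutrophil sums only just. T cell sums are highest in pDC, monocyte or macrophage sums are highest in cDC2, and erythroid sums overlap.

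The 39 markers were then compared gene by gene in a single fit of all 18 libraries. The filter on low counts kept 36 of them and left out Pax5, Eomes and Mpo. Over all 13539 genes tested, 50.5% were called between cDC1 and cDC2 (24.8% higher in cDC1, 25.7% higher in cDC2), 66.4% between cDC1 and pDC (34.3% higher in cDC1, 32.1% higher in pDC) and 64.1% between cDC2 and pDC (32.2% higher in cDC2, 32.0% higher in pDC). Of the markers tested, 28 were called between cDC1 and cDC2, 21 of them higher in cDC1. Between cDC1 and pDC 30 were called, 28 of them higher in cDC1. Between cDC2 and pDC 17 were called, 10 higher in cDC2 and 7 higher in pDC. When the test required a fold above 2, these counts fell to 19, 18 and 14, in the same order. The same test called 1333, 2999 and 2990 of the 13539 genes. The median log2 difference over the tested markers was 1.63 for cDC1 over cDC2, 1.55 for cDC1 over pDC and 0.21 for cDC2 over pDC, beside 0.01, 0.04 and 0.01 over all genes. A marker kept by the filter only through the subset where it is high was bound to differ, so these counts describe the list and test nothing about it. The counts given below by lineage and for the wider lists are likewise to be read beside the shares over all genes. They test nothing about the lists. In the annotation, Pax5, Cd3e, Eomes, Alas2, Mpo and Vcam1 share exon sequence with a gene on the opposite strand, and Lck and Klrb1c with a gene on the same strand, and reads from such neighbours may not have been told apart.

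Without the TMM scaling, which corrects for differences in composition between libraries, the median over all genes shifted to -0.17 for cDC1 over pDC and to -0.20 for cDC2 over pDC. The share of calls higher in the conventional subset then fell from 51.7% to 38.6% for cDC1 and from 50.1% to 37.4% for cDC2, while 28 markers were called between cDC1 and pDC and 16 between cDC2 and pDC. Between cDC1 and cDC2 that share moved from 49.1% to 48.2%.

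**Figure D3:**
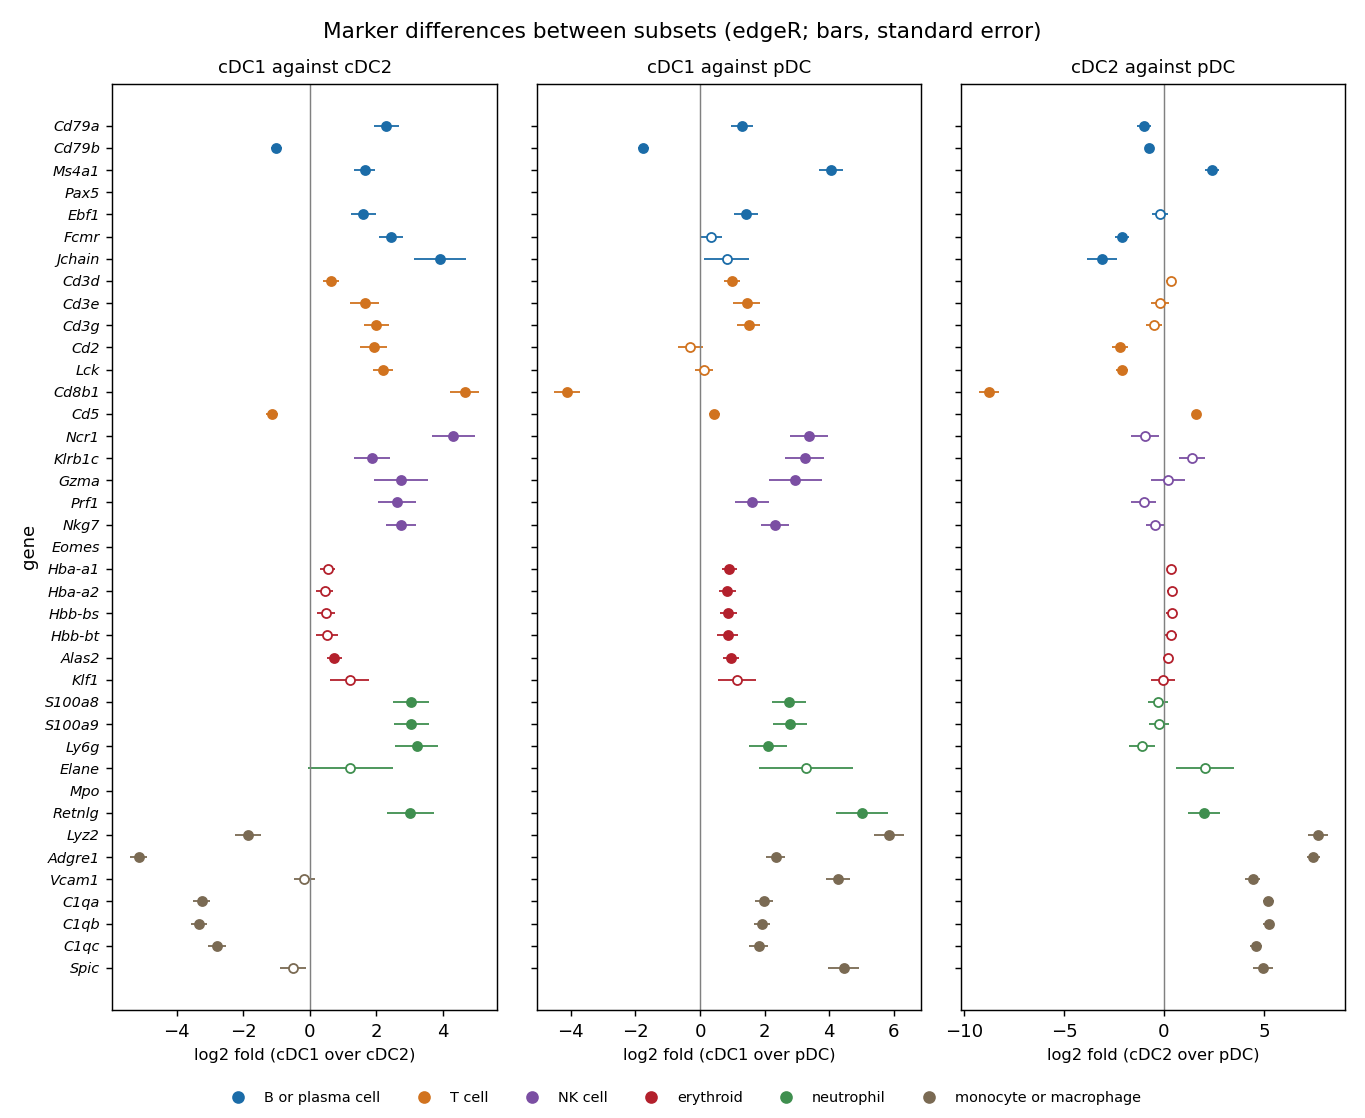
Log2 fold change of each tested marker between 2 subsets (edgeR; bars are 1 standard error, 6 libraries per subset), coloured by lineage, with filled points for adjusted p under 0.05 and open points otherwise. Pax5, Eomes and Mpo have no point because they were not tested. Most points of the left and middle panels lie to the right of 0, that is, higher in cDC1.

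Haemoglobin is the oxygen carrier of red cells, and its alpha and beta chains are encoded by near-identical gene pairs. In GENCODE M21 on GRCm38, Hba-a1 lies at 11:32283511-32284465 and Hba-a2 at 11:32296489-32297298, and Hbb-bs lies at 7:103826534-103828096 and Hbb-bt at 7:103812524-103813996. The coding sequences of Hba-a1 and Hba-a2 differ at 1 of 429 bases and those of Hbb-bs and Hbb-bt at 1 of 444. The stretches that hold that base are printed because they show where the coding sequences of the copies differ; sequence outside the coding part was not compared. Each is read from the reference and ends at the differing base, which is in capitals. The alpha stretch covers coding positions 322 to 381 and the beta stretch positions 358 to 417, counted from the first base of the start codon.
Hba-a1: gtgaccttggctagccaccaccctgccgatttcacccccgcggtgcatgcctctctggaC
Hba-a2: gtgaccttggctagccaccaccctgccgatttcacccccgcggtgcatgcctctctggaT
Hbb-bs: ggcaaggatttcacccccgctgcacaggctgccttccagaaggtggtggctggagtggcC
Hbb-bt: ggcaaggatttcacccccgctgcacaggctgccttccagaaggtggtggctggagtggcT
The sources do not say how reads were divided between the copies, so the division within each pair is uncertain.

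Globin transcripts were present at high levels in every library. Hbb-bs, the adult beta chain, ranged from 1219 to 3403 CPM in cDC1 (median 2020), from 1178 to 2170 in cDC2 (1412) and from 883 to 2505 in pDC (1140). The 3 ranges overlapped along most of their length. Hba-a2, an alpha chain, ranged from 895 to 2309 CPM in cDC1 (1470.0), from 898 to 1570 in cDC2 (1023) and from 651 to 1749 in pDC (812). Per kilobase of exon the median of Hbb-bs was 2631 CPM in cDC1, between the 217 of Xcr1 and the 29936 of Cd74, the MHC class II invariant chain. In pDC the same measure gave 1485 for Hbb-bs and 2545 for Siglech. The other globins, Hba-a1 and Hbb-bt, had medians of 1184 and 619 CPM in cDC1, 790.1 and 433 in cDC2 and 617 and 349.6 in pDC.

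Genes of red cell precursors were present at far fewer counts. Alas2, the enzyme that starts haem synthesis in erythroid cells, ranged from 16.1 to 40.9 CPM in cDC1, from 10.6 to 17.1 in cDC2 and from 8.75 to 24.03 in pDC. Klf1, a transcription factor of erythroid precursors, ranged from 0.659 to 5.61, from 0.575 to 2.25 and from 0.0818 to 4.56 CPM. Of the 6 erythroid markers, 1 was called between cDC1 and cDC2, namely Alas2, which was higher in cDC1 by a log2 fold of 0.74 ± 0.24 (SE, 6 libraries per subset, adjusted p = 0.0133). The call was lost without library a160 (adjusted p = 0.0528), and the count of 1 ranged from 0 to 3 as single libraries were left out. Hba-a1, at 0.53 ± 0.24 (adjusted p = 0.0669), was called without any of 4 libraries (a163, a172, a161 or a162), under DESeq2 (0.0441) and in the fit of 12 libraries (0.0488). Klf1, at 1.20 ± 0.59 (adjusted p = 0.0989), was called without a163 and in the fit of 12 libraries (0.0273). Hbb-bs differed by 0.49 ± 0.26 between the same subsets (adjusted p = 0.135). Between cDC1 and pDC 5 of 6 were higher in cDC1, for example Hbb-bs by 0.87 ± 0.27 (adjusted p = 0.00698), and Hbb-bt lost its call without any of 5 libraries (a160, a159, a168, a171 or a174) as well as without TMM scaling (adjusted p = 0.0802) and under DESeq2 (0.0542). Between cDC2 and pDC edgeR called 0 of 6, with 0 at an unadjusted p under 0.05 and 0 by DESeq2. Without the pDC library a162, which had the highest level of 5 of the 6 erythroid markers, the 4 globin genes were higher in cDC2.

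Of the 13 wider erythroid genes, which include Slc4a1 and Gata1, 12 were tested. Of these, 4 were higher in cDC1 than in cDC2 and 7 higher in cDC1 than in pDC, with none called the other way. Between cDC2 and pDC 1 was called in each direction. Car2, a carbonic anhydrase gene and the most abundant of this list, ranged from 25.5 to 87.8 CPM in cDC1, from 39.1 to 85.2 in cDC2 and from 6.91 to 50.2 in pDC.

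B cell markers did not move as a block. Cd79a (7:24897381-24902197) and Cd79b (11:106311341-106314762) encode the paired signalling chains of the B cell receptor, Ms4a1 encodes CD20, and Jchain (5:88519809-88527891) encodes the joining chain of secreted IgM and IgA. Cd79b was highest in pDC at 72.6 to 131 CPM (median 104), lower in cDC2 at 43.2 to 62.5 (52.6) and lowest in cDC1 at 17.2 to 37.8 (27.0), and the 3 ranges did not overlap. Its log2 fold was -1.01 ± 0.16 for cDC1 over cDC2 (adjusted p = 2.56e-05), -1.75 ± 0.16 for cDC1 over pDC (7.74e-09) and -0.74 ± 0.16 for cDC2 over pDC (0.000358). Its partner Cd79a had another order, with 16.4 to 52.8 CPM in cDC1, 5.11 to 21.96 in pDC and 2.57 to 12.3 in cDC2. It was higher in cDC1 than in cDC2 by 2.30 ± 0.37 (adjusted p = 2.67e-05) and than in pDC by 1.30 ± 0.35 (0.00303). The call of Cd79a between cDC2 and pDC was lost without library a162 (adjusted p = 0.0523).

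Ms4a1 had yet another order. It ranged from 44.7 to 138 CPM in cDC1, from 14.1 to 39.6 in cDC2 and from 1.84 to 9.67 in pDC, with no overlap, and was higher in cDC1 than in pDC by a log2 fold of 4.05 ± 0.36 (adjusted p = 3.90e-09). Jchain varied most from library to library. It ranged from 15.9 to 352 CPM in cDC1 (median 128), from 1.34 to 21.4 in cDC2 (7.91) and from 6.03 to 223 in pDC (94.3), which is 22.2, 15.9 and 37.1 times from lowest to highest. It was higher in cDC1 than in cDC2 by 3.91 ± 0.78 (adjusted p = 0.000303) and higher in pDC than in cDC2, but the difference between cDC1 and pDC of 0.82 ± 0.69 did not pass (adjusted p = 0.302). The B lineage transcription factor genes were at trace level, with Pax5 at 0.0818 to 0.659 CPM and Ebf1 at 0.245 to 2.99 over all 18 libraries. Fcmr, the Fc receptor for IgM, ranged from 1.76 to 10.2 CPM in cDC1, from 0.460 to 1.83 in cDC2 and from 4.21 to 6.34 in pDC. In all, of 6 B markers tested, 5 were higher in cDC1 and 1 in cDC2 in that pair, 3 in cDC1 and 1 in pDC, and 1 in cDC2 and 4 in pDC.

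Among 18 wider B and plasma cell genes, 9 were higher in cDC1 than in cDC2 and 2 lower, 7 higher in cDC1 than in pDC and 8 lower, and 4 higher in cDC2 than in pDC and 11 lower. Over all genes tested, 50.5%, 66.4% and 64.1% were called in these pairs, in the same order. Ighm, the IgM heavy chain, stood at 1905 to 2178 CPM in pDC, 334 to 471 in cDC1 and 219 to 336 in cDC2. Its highest and lowest pDC libraries differed by 1.14 times. Igkc, the kappa light chain, ranged from 387 to 1084 CPM in pDC, from 67.8 to 1069 in cDC1 and from 6.14 to 84.8 in cDC2.

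The T cell set was dominated by Cd8b1 (6:71322788-71337494), which encodes the beta chain of CD8, the coreceptor of cytotoxic T cells. It ranged from 301 to 956 CPM in pDC (median 789), from 13.8 to 58.4 in cDC1 (33.2) and from 0.819 to 2.14 in cDC2 (1.39), with no overlap. The log2 fold was -8.77 ± 0.50 for cDC2 over pDC and 4.65 ± 0.44 for cDC1 over cDC2 (adjusted p = 3.77e-12 and 2.79e-08). Cd8a, the alpha chain and a cDC1 identity gene here, had a median of 1319 CPM in cDC1 and 234 in pDC. The Cd8b1 to Cd8a ratio was thus 0.0160 to 0.0302 in cDC1 libraries and 1.28 to 4.34 in pDC libraries.

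The CD3 genes, which encode the invariant chains of the T cell receptor complex, were low in all libraries. Over the 18 libraries Cd3d lay between 2.33 and 8.91 CPM, Cd3e between 0.0591 and 2.29, and Cd3g between 0.286 and 3.63. All 3 were higher in cDC1 than in cDC2 and than in pDC, with Cd3g at a log2 fold of 2.00 ± 0.38 over cDC2 (adjusted p = 0.000163) and 1.503 ± 0.364 over pDC (0.00116). The call of Cd3d over cDC2 (0.63 ± 0.24, adjusted p = 0.0346) was lost when any of 7 libraries was left out (a157, a160, a163, a165, a167, a170 or a173). Between cDC2 and pDC none of the 3 was called. Lck, the kinase that acts beside CD3, ranged from 2.51 to 5.38 CPM in cDC1, from 2.23 to 5.44 in pDC and from 0.298 to 1.32 in cDC2. Cd2, an adhesion receptor of T cells, was higher in pDC than in cDC2 by 2.22 on the log2 scale (SE 0.41, adjusted p = 7.39e-05).

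Cd5 (19:10717116-10739002), a receptor that dampens antigen receptor signals, was the T cell marker with cDC2 highest. It ranged from 7.81 to 15.9 CPM in cDC2 (median 11.7), from 4.13 to 8.03 in cDC1 (4.73) and from 3.37 to 5.28 in pDC (4.61). The ranges of cDC1 and cDC2 met only in library a172, the highest of cDC1, and library a173, the lowest of cDC2. Cd5 was higher in cDC2 than in cDC1 (log2 fold of cDC1 over cDC2 -1.15 ± 0.18, adjusted p = 2.14e-05). Its call for cDC1 over pDC (0.45 ± 0.18, adjusted p = 0.0371) was lost without TMM scaling (adjusted p = 0.277) and when any of 7 libraries was left out (a160, a172, a158, a162, a168, a171 or a174). In all, of 7 T cell markers, 6 were higher in cDC1 and 1 in cDC2 in that pair, 4 in cDC1 and 1 in pDC, and 1 in cDC2 and 3 in pDC. Of 18 wider T cell genes 13 were tested, of which 6 were higher in cDC1 than in cDC2 and 2 lower, 5 higher in cDC1 than in pDC and 4 lower, and 2 higher in cDC2 than in pDC and 5 lower. Tcf7, a transcription factor of T cells, stood at 32.3 to 51.2 CPM in cDC2 and 0.123 to 1.42 in pDC, whereas Cd28, a costimulatory receptor gene, stood at 0.186 to 0.467 in cDC2 and 21.2 to 60.6 in pDC.

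NK markers were low everywhere and highest in cDC1. Nkg7 (7:43437073-43438249), a granule membrane protein gene, ranged from 5.44 to 10.7 CPM in cDC1 (median 8.13), from 0.268 to 2.18 in cDC2 (1.30) and from 0.286 to 3.84 in pDC (1.57). Gzma (13:113093825-113100981), which encodes granzyme A, ranged from 1.78 to 12.7 CPM in cDC1 (3.61), from 0 to 1.94 in cDC2 (0.772) and from 0.0775 to 2.55 in pDC (0.476). Ncr1 (7:4337724-4345164), which encodes the NK receptor NKp46, ranged from 1.75 to 3.64 CPM in cDC1 (2.70), from 0 to 0.545 in cDC2 (0.0683) and from 0 to 0.607 in pDC (0.239). Every cDC1 library lay above every library of the other subsets for Nkg7 and Ncr1, while Gzma overlapped in its lowest cDC1 library, a160. In cDC2, 2 of 6 libraries had 0 counts of Ncr1, and the highest, a158, had 0.545 CPM.

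All 5 NK markers tested were higher in cDC1 than in cDC2 and than in pDC, including Prf1, which encodes perforin. For Ncr1 the log2 fold was 4.32 ± 0.65 over cDC2 (adjusted p = 1.27e-05) and 3.36 ± 0.59 over pDC (4.31e-05), and for Nkg7 it was 2.76 ± 0.45 and 2.31 ± 0.44. Ncr1 had 0 to 14 counts in a cDC2 library and 0 to 19 in a pDC library, so it passed the filter on low counts through cDC1. Prf1, with 1 to 5 and 2 to 17 counts, and Klrb1c, with 4 to 12 and 0 to 9, passed it largely through cDC1 too. The calls of these NK markers over cDC2 and pDC were thus largely bound to favour cDC1. Between cDC2 and pDC edgeR called 0 of 5, with 1 (Klrb1c, which encodes NK1.1) at an unadjusted p under 0.05 and 1, again Klrb1c, by DESeq2. Without a158 Ncr1 was higher in pDC than in cDC2 (adjusted p = 0.0164), and without a168 or a172 Klrb1c was higher in cDC2 than in pDC. Eomes, a transcription factor gene of NK cells that was not tested, ranged from 0.162 to 0.430 CPM in cDC1, from 0 to 0.149 in cDC2 and from 0 to 0.159 in pDC.

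The wider NK list did not follow the same order. Of its 13 genes tested, 4 were higher in cDC1 than in cDC2 and 4 lower, 9 were higher in cDC1 than in pDC and 1 lower, and 6 were higher in cDC2 than in pDC and 2 lower. Klrd1, which encodes CD94, reached 486 to 759 CPM in pDC, against 160 to 294 in cDC2 and 23.5 to 95.9 in cDC1. The chemokine gene Ccl5, also known in dendritic cells, ranged from 139 to 613 CPM in cDC1 and from 262 to 846 in cDC2, but from 0.532 to 5.14 in pDC.

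S100a8 (3:90668978-90670035) and S100a9 (3:90692632-90695721) encode the subunits of calprotectin, an abundant protein of neutrophil cytosol. S100a8 ranged from 96.6 to 411 CPM in cDC1 (median 218), from 11.9 to 58.2 in cDC2 (25.0) and from 5.22 to 101 in pDC (34.4). S100a9 ranged from 96.0 to 390 CPM in cDC1 (210), from 10.4 to 55.3 in cDC2 (24.9) and from 6.15 to 99.7 in pDC (32.5). All cDC1 libraries lay above all cDC2 libraries for both genes, and 1 pDC library, a174, reached the lowest cDC1 library, a163. S100a8 was higher in cDC1 than in cDC2 by a log2 fold of 3.05 ± 0.53 (adjusted p = 7.47e-05) and than in pDC by 2.74 ± 0.53 (0.000118). Between cDC2 and pDC its difference was -0.31 ± 0.50 (adjusted p = 0.613).

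Markers of other stages of the neutrophil were sparser. Retnlg (16:48872621-48874496), a gene of mature neutrophils, ranged from 3.76 to 14.7 CPM in cDC1, from 0 to 3.90 in cDC2 and from 0.0818 to 0.893 in pDC. Its call for cDC2 over pDC (2.00 ± 0.81, adjusted p = 0.0376) was the only neutrophil call of that pair, and it was lost without TMM scaling (adjusted p = 0.0545) and when any of 8 libraries was left out (a158, a161, a173, a159, a162, a168, a171 or a174). Ly6g, the antigen by which neutrophils are commonly stained, lay between 0.543 and 3.53 CPM in cDC1, between 0.0372 and 0.414 in cDC2 and between 0.0637 and 1.54 in pDC. Of 5 neutrophil markers tested, 4 were higher in cDC1 than in cDC2 and 4 higher in cDC1 than in pDC, with none higher in the other subset. Ly6g had 1 to 14 counts in a cDC2 library and 2 to 49 in a pDC library, and Retnlg had 0 to 100 and 2 to 24. Both passed the filter on low counts largely through cDC1, so their calls over cDC2 and pDC were largely bound to favour cDC1.

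Elane (10:79886247-79888215) and Mpo (11:87793581-87804413) encode neutrophil elastase and myeloperoxidase, granule proteins whose transcripts are made by promyelocytes. They were concentrated in a few libraries. In cDC1, Elane had 11.2 CPM in a160, 4.19 in a163 and 3.91 in a172, and at most 1.5 in the other libraries. Mpo in the same libraries had 8.50, 3.88 and 3.88 CPM, and 0.307 to 0.977 elsewhere in cDC1. In cDC2, library a173 had 8.52 CPM of Elane and 4.49 of Mpo, while the other 5 had 0 to 0.0744 and 0.0372 to 0.285. In pDC, library a168 had 2.13 CPM of Elane, the others 0 to 0.315, and Mpo lay between 0.155 and 0.283. The highest library for Elane was not the highest for S100a8, which was a169 in cDC1, a161 in cDC2 and a174 in pDC. Elane was not called between cDC1 and cDC2 (1.22 ± 1.28, adjusted p = 0.453). Without a173 its log2 fold was 7.49, but the cDC2 libraries left then held 0 to 2 counts. A difference in favour of cDC1 was fixed by that removal, and its size rests on counts near 0.

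Of the 12 wider neutrophil genes 9 were tested. Of these, 6 were higher in cDC1 than in cDC2 and 2 lower, 8 were higher in cDC1 than in pDC and 0 lower, and 3 were higher in cDC2 than in pDC. Ngp, a secondary granule protein gene, ranged from 54.8 to 257 CPM in cDC1, from 0.707 to 24.7 in cDC2 and from 0.324 to 62.8 in pDC, with a174 again the highest of pDC.

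**Figure D4:**
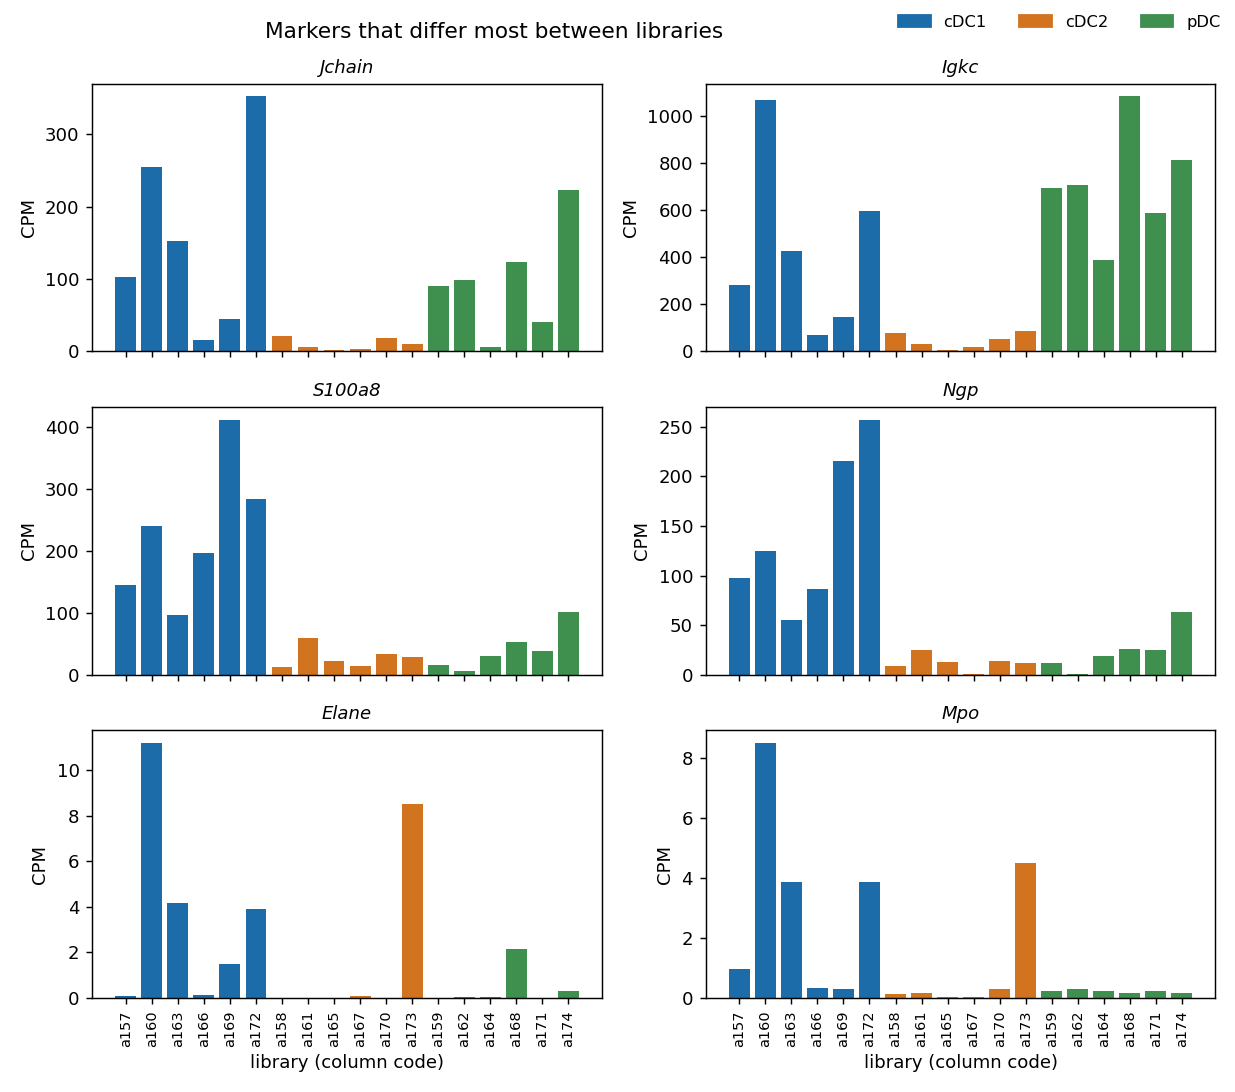
CPM of 6 genes that vary between libraries of a subset, 1 bar per library and colours for subsets: Jchain and Igkc of plasma cells, S100a8 and Ngp of neutrophils, Elane and Mpo of granulocyte precursors. Elane and Mpo stand out in a160 and a173, S100a8 in a169, and Jchain in a172, a160 and a174.

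Monocyte and macrophage markers were lowest in pDC, and most were highest in cDC2. Lyz2 (10:117277331-117282321) encodes lysozyme of myeloid cells, and its coding sequence is 95.1% identical to that of its neighbour Lyz1. It ranged from 2580 to 9257 CPM in cDC2 (median 3910), from 801 to 2099 in cDC1 (1256) and from 8.90 to 56.1 in pDC (25.7), with no overlap. It was lower in cDC1 than in cDC2 by a log2 fold of -1.87 ± 0.39 (adjusted p = 0.000446) and higher than in pDC by 5.84 ± 0.47 (7.34e-10). Adgre1, which encodes the macrophage antigen F4/80, ranged from 158.1 to 246.6 CPM in cDC2, from 2.70 to 7.17 in cDC1 and from 0.605 to 2.05 in pDC, and its log2 fold was 7.48 ± 0.30 for cDC2 over pDC (adjusted p = 1.55e-14).

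C1qa, C1qb and C1qc encode the chains of complement C1q, a product of tissue macrophages, and lie side by side on chromosome 4. C1qb ranged from 62.3 to 173.4 CPM in cDC2, from 7.67 to 13.2 in cDC1 and from 1.90 to 4.60 in pDC. All 3 were higher in cDC2 than in cDC1 and higher in cDC1 than in pDC, with C1qb at -3.34 ± 0.24 for cDC1 over cDC2 and 1.91 ± 0.25 for cDC1 over pDC (adjusted p = 4.21e-10 and 9.56e-07). The remaining markers belong to red pulp macrophages, which take up old red cells. Spic, a transcription factor they need, ranged from 32.7 to 112 CPM in cDC2 and from 15.4 to 77.0 in cDC1, against 2.09 to 3.19 in pDC. Vcam1 (3:116109949-116129688), an adhesion molecule gene, ranged from 27.3 to 118 CPM in cDC2 (71.1), from 38.1 to 78.5 in cDC1 (64.3) and from 2.09 to 6.58 in pDC (3.50). For neither did the difference between cDC1 and cDC2 pass, at -0.51 ± 0.39 for Spic (adjusted p = 0.299) and -0.17 ± 0.31 for Vcam1 (0.692), while both were higher in each conventional subset than in pDC. In all, 5 of 7 monocyte or macrophage markers were higher in cDC2 than in cDC1, and 7 of 7 were higher in cDC1 and in cDC2 than in pDC.

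The wider list of this lineage had 14 genes tested, with 4 higher and 4 lower in cDC1 than in cDC2, 10 higher and 2 lower in cDC1 than in pDC, and 12 higher and 2 lower in cDC2 than in pDC. Ly6c2, the monocyte antigen Ly6C, was one of those higher in pDC, at 6706 to 7665 CPM against 20.97 to 35.6 in cDC1 and 3.68 to 7.89 in cDC2. Its highest and lowest pDC libraries differed by 1.14 times, and the source of its transcripts was not tested. Treml4, a receptor gene of splenic myeloid cells, ranged from 88.1 to 128 CPM in cDC1, from 20.8 to 34.0 in cDC2 and from 0.116 to 0.637 in pDC. Csf1r, the receptor of the macrophage growth factor, ranged from 105 to 340 CPM in cDC2, from 15.0 to 25.1 in cDC1 and from 1.47 to 2.91 in pDC.

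Pairs of markers of the same lineage were compared as count ratios within each library. Some pairs had similar ratios in all 3 subsets. Hbb-bs to Hba-a2 lay between 1.27 and 1.48 over all 18 libraries, whose Hbb-bs ranged from 883 to 3403 CPM. S100a8 to S100a9 lay between 0.849 and 1.37. C1qb to C1qa had medians of 1.98 in cDC1, 1.96 in cDC2 and 1.98 in pDC, and the highest ratio, 3.77, came from a pDC library. C1qb to C1qc, of the same complex, did not overlap between cDC2 (1.496 to 1.65) and cDC1 (0.857 to 1.32), and lay between 0.779 and 1.63 in pDC. Other pairs had ratios that depended on the subset. Cd79b to Cd79a was 0.714 to 1.05 in cDC1, 3.51 to 19.3 in cDC2 and 4.21 to 14.2 in pDC. Ms4a1 to Cd79a was 1.08 to 6.13 in cDC1, 1.93 to 14.3 in cDC2 and 0.346 to 0.442 in pDC. Cd8b1 to Cd3d was 1.70 to 14.8 in cDC1, 0.256 to 0.495 in cDC2 and 73.0 to 352 in pDC. Lyz2 to C1qb was 71.5 to 168.4 in cDC1, 25.2 to 60.3 in cDC2 and 3.67 to 12.9 in pDC. Over all libraries, Hba-a2 to Hba-a1 lay between 1.09 and 1.47, and Hbb-bs to Hbb-bt between 2.57 and 3.93. Ranges were wider for Ngp to S100a8, at 0.0495 to 0.909, and for Igkc to Jchain, at 1.70 to 64.2. Nkg7 to Ncr1 ranged from 1.75 to 50 in the libraries that held Ncr1 counts. Across lineages, Lyz2 to S100a8 was 0.460 to 1.71 in pDC, 3.35 to 10.2 in cDC1 and 48.4 to 648 in cDC2. Ratios between genes also carry their transcript lengths, so they are read here between libraries and not as levels of the genes.

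**Figure D5:**
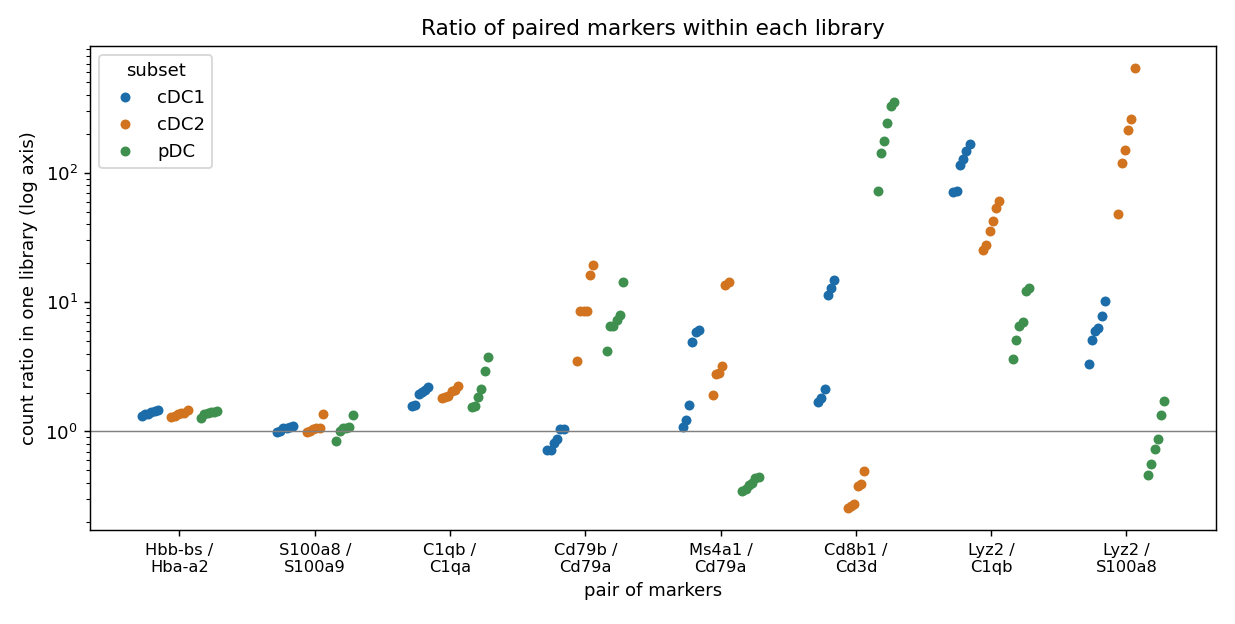
Ratio of the counts of paired markers within each library (log axis), 1 point per library, coloured by subset, with a line at 1. Hbb-bs to Hba-a2, S100a8 to S100a9 and C1qb to C1qa lie close together in all subsets, while the ratios of Cd79b and Ms4a1 to Cd79a, Cd8b1 to Cd3d and Lyz2 to C1qb or S100a8 separate at least 1 subset from the others.

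Which library of a subset had the highest marker levels varied from lineage to lineage. In cDC1, library a160 had the highest level of all 6 erythroid markers, of 4 of 7 B or plasma cell markers and of 4 of 7 T cell markers. Library a169 led 3 of 6 neutrophil markers. Library a166 was the lowest for 6 of 7 B or plasma cell markers and the highest for Gzma. In cDC2, library a161 led 4 of 6 erythroid markers and 3 of 6 neutrophil markers, and library a173 also led 3 of 6 neutrophil markers. Library a167 led 6 of 7 monocyte or macrophage markers and had the lowest level of 4 of 6 erythroid and 4 of 7 T cell markers. In pDC, library a162 led 5 of 6 erythroid markers, and library a174 led 3 of 6 neutrophil markers and 5 of 7 monocyte or macrophage markers. Library a159 was the lowest of the pDC libraries for 6 of 7 B or plasma cell, 4 of 6 NK and 4 of 6 erythroid markers.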

How the data were processed

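RNA of sorted cDC1, cDC2 and pDC was sequenced from libraries made with a SMARTER mRNA-seq kit, per the labels' protocols. Tools listed in the submitters' processing notes are kallisto and DESeq2, with the build GRCm38; versions and roles are not stated there. The authors deposited, for each subset, a table of whole-number counts per gene (every listed gene has at least 10 counts over the 6 columns), and a normalized table. Tested on the files, the deposited normalized signal is the raw count divided by 1 size factor per column within a subset, and it served only as an alternative. The division of reads between near-identical genes is not described.

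No column name matched a sample title, so columns were assigned to the subset of their table. No value column was left unused (0). The 39 markers, the wider lists (95 genes) and the tests were chosen with earlier results of these data known, and the ratio pairs after values were seen. CPM was computed from all rows of a table. Comparisons used edgeR 4.0.16 in R 4.3.3 (quasi-likelihood test, TMM, default expression filter) on the 15219 genes shared by the tables, with 13539 tested, all 18 columns in 1 fit, no covariate, Benjamini-Hochberg adjustment over all genes and a threshold of 0.05. The fit was run on simulated counts with the same spread for every gene and few changed genes. These data differ in both respects, so that run checks the code and not the marker calls. Alternatives were no TMM, no filter, genes of any table, another library size, a test against a fold of 2, 12 columns only, DESeq2 1.42.0 and leaving out each column. Depth was 23530860 to 37105002 counts per library. Values in full were given to the 2 members of each lineage with the highest median CPM over the 18 columns and to each member whose highest column had at least 10 counts and 5 times the median of its subset, with other members by range; of the wider lists, to the gene with the highest mean in each lineage and table; other genes were named after their values were seen. Gene positions come from GENCODE M21, which listed all 39 markers.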

Additional observations from a re-analysis of the deposited data

Results flagged for a closer look

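Of 66 groups of 6 libraries examined for a single library far from the others (a gap to its neighbour above Dixon's 95% critical share of the range), 15 held such a library. The 5% that this rule gives by chance is no yardstick here, because it holds for normally distributed values. In addition, Ncr1, Elane, Mpo and Retnlg were examined because their highest library was at least 5 times the median of a subset. The count of 15 therefore only describes the list. The groups overlap in content, since the erythroid sum and its genes move together. No cause was tested for any of them.

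Erythroid traces stood apart in 1 cDC2 and 1 pDC library. The erythroid sum was 5627 CPM in cDC2 library a161, against 3104 to 3883 in the others, and 6457 CPM in pDC library a162, against 2326 to 3494. The same libraries had 2170 CPM of Hbb-bs (others 1178 to 1531) and 2505 CPM (others 883 to 1273), and 1570 CPM of Hba-a2 (others 898 to 1096) and 1749 CPM (others 651 to 1002).

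Granulocyte precursor and neutrophil genes stood apart in different libraries. Elane, the elastase gene, reached 11.2 CPM in cDC1 library a160 (others 0.0850 to 4.19), 8.52 in cDC2 library a173 (others 0 to 0.0744) and 2.13 in pDC library a168 (others 0 to 0.315). Mpo reached 4.49 CPM in a173 (others 0.0372 to 0.285). S100a9 reached 99.7 CPM in pDC library a174 (others 6.15 to 39.5). Retnlg, a gene of mature neutrophils, reached 3.90 CPM in cDC2 library a161 (others 0 to 1.32) and 0.893 in pDC library a164 (others 0.0818 to 0.346).

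Among NK markers, Gzma reached 12.7 CPM in cDC1 library a166 (others 1.78 to 5.43) and Ncr1 reached 0.545 CPM in cDC2 library a158 (others 0 to 0.153).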

How the results depend on the processing

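No paired analysis was possible because the value columns carry no replicate number that matches a sample. Against a fold of 2, edgeR called 19, 18 and 14 markers for cDC1 over cDC2, cDC1 over pDC and cDC2 over pDC, in place of 28, 30 and 17. Over all genes it called 1333, 2999 and 2990, in place of 6843, 8986 and 8684. Without the markers also known in dendritic cells, median lineage sums moved to 89.4 CPM (B cell, cDC2), 7.54 (T cell, cDC2) and, for monocyte or macrophage markers, 143, 372.0 and 15.2 in cDC1, cDC2 and pDC. Without TMM the log2 difference of Lck between cDC1 and pDC, not called in either case, changed from 0.11 to -0.11. Leaving out 1 library at a time gave 26 to 30, 28 to 32 and 16 to 19 called markers and 6512 to 6815, 8715 to 9099 and 8442 to 8868 called genes. Other values for sums and called counts (186) were labelled unchanged by the size of their shift, which involves no threshold of significance. The label is loose, since it covers the falls from 28 to 19 and from 17 to 14 called markers against a fold of 2. Over single markers and alternatives other than leaving out a library, 713 values kept their side of the threshold, 28 lost and 4 gained a call. The fold-2 test and the shorter lists change these values by construction, and the cause of the other changes was not tested. Depth limits the low markers: Ncr1, Klrb1c, Gzma, Eomes, Elane and Retnlg each had 0 counts in at least 1 library.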

Other observations

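Platelet genes, which are no part of the 39 markers, were low in most libraries and high in 1 pDC library. Over 5 genes their sum ranged from 3.78 to 45.0 CPM in cDC1 (median 5.49), from 2.23 to 4.94 in cDC2 (3.11) and from 1.40 to 340 in pDC (2.82). The pDC library a164 held 115 CPM of Pf4 and 203 CPM of Ppbp, the chemokine genes of platelet granules, and 9.15 of Gp9, 7.40 of Gp1bb and 5.43 of Itga2b, the genes of platelet surface receptors. In cDC1, library a172 held 34.3 CPM of Pf4. Neither library had the highest erythroid sum of its subset.

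Several markers had values within a subset that lay in separate ranges. In cDC1, Spic had 28.3 CPM in a157, 16.6 in a160, 15.4 in a163, 77.0 in a166, 72.1 in a169 and 69.2 in a172, with none between 28.3 and 69.2. Cd8b1 in the same libraries, in the same order, had 13.8, 16.7, 16.3, 53.6, 49.7 and 58.4 CPM, and Ms4a1 had 44.7, 64.9, 56.9, 101, 112 and 138. In cDC2, Spic had 39.8 CPM in a158, 35.4 in a161, 32.7 in a165, 112 in a167, 96.9 in a170 and 86.6 in a173, with none between 39.8 and 86.6. Lyz2 in those libraries, in the same order, had 2580, 2819, 2656, 9257, 5002 and 7224 CPM, and Ms4a1 had 38.3, 39.6, 36.7, 14.1, 17.8 and 20.02. In pDC, Spic lay between 2.09 and 3.19 CPM. Cd2 had 1.39 CPM in a159, 2.95 in a162, 2.86 in a164, 6.51 in a168, 7.17 in a171 and 7.93 in a174, with none between 2.95 and 6.51. Cd79b in those pDC libraries, in the same order, had 72.6, 92.5, 90.8, 131, 115 and 115 CPM. The genotype of a library is unknown here, and these values were neither grouped nor tested. Libraries are listed in the order of their codes. The genes were picked after their values were seen. How many of the other markers, or of all genes, have such a gap was not counted. These values therefore do not show that the libraries of a subset form groups.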
